A study of Mus musculus with 2 samples.

Results

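The genes described here encode the proteins of the cytosolic ribosome. They were chosen by symbol: protein-coding genes named Rpl or Rps with a number, together with Rplp0, Rplp1, Rplp2 and Rpsa, and without the S6 kinases. The rule gave 92 genes, of which 88 had reads, among 18111 annotated genes with at least 1 read. They comprise 43 genes of the large subunit, 3 of the P stalk, 31 of the small subunit, 8 paralogs outside the standard set, 6 genes whose names mark them as retrocopies although they are annotated as protein-coding, and Rps19bp1. The last encodes a binding partner of Rps19 rather than a ribosomal protein, so the symbol rule is slightly wider than its name. The 77 genes of the subunits and the stalk are called the core below.

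The RNA came from adrenal glands of female B6CASTF1/J mice, the F1 cross of C57BL/6J and CAST, at 14 days of age. The study has 1 group with 2 libraries, biological replicates 1 and 2, and no treatment or control. The biosample label names 3 females for replicate 1 and 1 female for replicate 2. The library descriptions name 3 for both, so how many animals each pools was not settled. Each library was read by long-read sequencing, in which a read is meant to cover a whole cDNA molecule, and reads were counted per transcript model. With 1 library per tissue sample, a difference between the libraries compares those libraries, and its counting error does not hold the spread between animals.

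A ribosome is built from a small subunit, which decodes the mRNA, and a large subunit, which joins amino acids, with the P stalk recruiting the factors that drive elongation. Nearly every protein is present in 1 copy per ribosome, and the mRNAs that encode them are among the most abundant of most cells. Many carry a 5′ terminal oligopyrimidine tract, through which mTORC1 and Larp1 adjust their translation together. Mammalian genomes also hold many processed retrocopies of these genes, intronless cDNA copies that can be almost identical to the parent mRNA. In the adrenal gland, steroid-producing cortex and catecholamine-producing chromaffin cells both rely on this machinery.

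Replicate 1 held 1143111 reads, of which 1065570 fell in annotated genes, and replicate 2 held 991731 and 946553. ERCC spike-in reads numbered 26894 and 15903. The libraries differed in tissue content. All 8 adrenal cortex markers and all 6 chromaffin markers tested were lower in replicate 2, with median log2 ratios of -1.08 and -1.44. All 12 hepatocyte markers were higher there and took 8.52% of gene reads against 0.0797% in replicate 1, and all 7 skeletal muscle markers tested were higher too (0.203% against 0.00676%). Of the muscle markers Myh1 and Tnnt3 were at 0 in replicate 1. Of the erythroid genes 5 of 5 were lower (1.13% and 0.362% of gene reads), of the endothelial markers 1 of 4 was lower, and 2 of 4 brown adipocyte and 1 of 2 leukocyte markers were higher. These values stand beside every library difference below, and their part in it was not tested. In bulk tissue, fewer cells of a type and less RNA per cell cannot be told apart.

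The ribosomal protein genes were expressed at high levels and in nearly the same order in both libraries. As a share of gene reads 71 of the 86 tested were lower in replicate 2, a direction that the median lost when spike-in reads set the scale. Levels are given in CPM, in which gene reads set the library's total. Together the 92 genes took 34701 reads in replicate 1, or 3.26% of gene reads (95% Clopper-Pearson interval 3.22 to 3.29), and 21079 in replicate 2, or 2.23% (2.20 to 2.26). The mean was 2.74% ± 0.73 (SD, n = 2). Intervals cover counting error only and do not hold the spread between animals, and the reads carry no molecular identifiers. The median level of the 86 genes with at least 20 summed reads was 289 CPM, against 39.8 CPM over all 9211 genes that met the same minimum.

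Rpl41, which encodes a very short basic peptide, had 1264 and 732 reads, or 1186 and 773 CPM. Rplp0, the base on which the P stalk is assembled, reached 1137 and 783 CPM. Replicate 1 was the higher library for both, by more than their counting error. Rpl5, which carries 5S rRNA into the large subunit, stood at 1120 and 778 CPM. Rpl3, close to the peptidyl transferase centre, stood at 1057 and 731 CPM. Rpl4, which lines the exit tunnel, had 848 and 632 CPM. The next large-subunit genes were Rpl35 (806 and 543 CPM), Rpl13 (797 and 519 CPM) and Rpl13a (622 and 406 CPM). Rps14, from the platform of the small subunit, had 700 and 528 CPM. The 10 genes of highest mean CPM held 33.0% of all ribosomal protein reads in replicate 1 and 33.4% in replicate 2.

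Per length, with CPM divided by the mean length in kb of the models that drew the reads, the order changed. Rpl41 stood at 1708 CPM per kb, above the short mRNAs of Rps28 (1142), Rpl39 (1077) and Rps14 (1005). Rplp0 came to 706 CPM per kb and Rpl4 to 509. A Known model has the length of its annotated transcript and not of the reads, which makes this scale unreliable for genes with long annotated ends such as Rps15a, whose mean model length was 5099 nt. The order of levels was shared by the libraries: over the 86 genes, log2 CPM had a Pearson correlation of 0.992 and a Spearman correlation of 0.980, as a description of 2 libraries that share their annotation. Over all genes tested the Pearson value was 0.696.

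**Figure D1:**
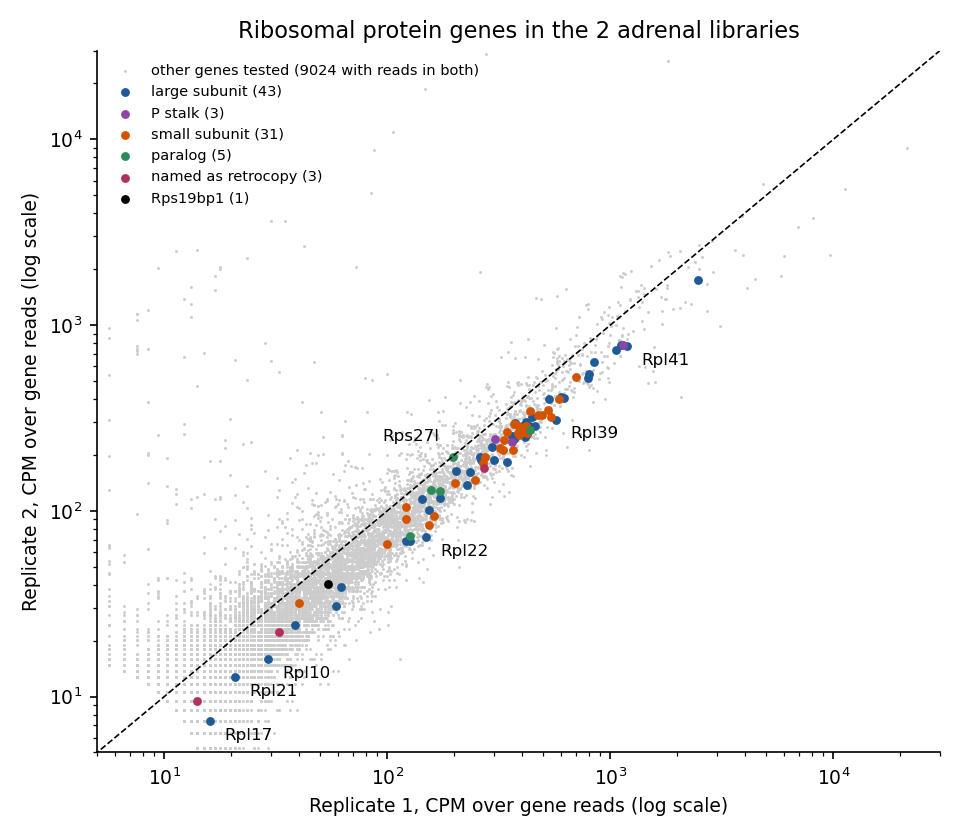
CPM over gene reads in replicate 1 (horizontal, log scale) and replicate 2 (vertical, log scale) for each ribosomal protein gene with at least 20 summed reads, coloured by role, over the other genes tested in grey; the axes begin at 5 CPM and the dashed line marks equal values. The coloured points lie along a narrow band under the line, from Rpl17 at 16.0 and 7.40 CPM past Rpl41 at 1186 and 773 CPM, with Rps27l on it.

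Each gene was compared between libraries by an exact conditional binomial test of its reads given the totals of gene reads (two-sided, Benjamini-Hochberg adjusted over the 9211 genes, threshold 0.05). Of the 86 ribosomal protein genes tested, 71 were lower in replicate 2, 0 were higher and 15 were not called. Over all genes tested 17.9% were lower and 8.58% were higher. The log2 ratio of replicate 2 over replicate 1 was below 0 for all 86, with a median of -0.55 and a range from -1.05 to -0.03, against a median of -0.28 over all genes (37 of the 86 were below 0 with spike-in scaling). The SD of the ratio over the 86 genes was 0.18, and 1.34 over all genes tested. All 49 ribosomal protein genes with at least 500 summed reads were lower, and calls were more frequent at depth in other genes too: 46.3% of these were lower with 300 to 1000 summed reads and 46.8% with more, against 6.77% with 20 to 100.

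By role, in the large subunit 36 of 43 genes were lower (median -0.60), in the P stalk 3 of 3 (-0.54), and in the small subunit 28 of 31 (-0.55). Rps19bp1 was not called. In the stalk, Rplp0 had a log2 ratio of -0.54 ± 0.07 (counting SE), Rplp1 had 364 and 236 CPM and -0.63 ± 0.12, and Rplp2 had 305 and 243 CPM and -0.33 ± 0.12. Rps27a, made as a fusion with ubiquitin and cleaved, fell from 391 to 266 CPM (-0.55 ± 0.12). Of the 4 X-linked genes, Rpl39 (571 and 310 CPM, -0.88 ± 0.10), Rps4x (416 and 276 CPM, -0.59 ± 0.11) and Rpl36a (172 and 117 CPM, -0.55 ± 0.17) were lower, while Rpl10 had 31 and 15 reads and a ratio of -0.85 ± 0.45 that was not called.

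Among genes with at least 50 summed reads, the lowest ratios were those of Rpl22 (149 and 71.8 CPM, -1.05 ± 0.21), Rpl7a (59.1 and 30.6 CPM, -0.94 ± 0.32), Rpl37 (344 and 184 CPM, -0.90 ± 0.13) and Rpl39. All 4 were called and encode large-subunit proteins, as do 43 of the 86 genes tested. The small-subunit gene Rps13 came next, at -0.88 ± 0.20 (164 and 79 reads, called). Rpl7a and Rpl37 have near-identical retrocopies that drew reads, given below, so their own counts are uncertain. The highest ratios were those of Rps27l (chr9:66946086-66949468, plus strand) at -0.03 ± 0.15 (211 and 184 reads), Rps24 at -0.21 ± 0.19 (129 and 99 reads), Rpl7l1 at -0.29 ± 0.17 (168 and 122 reads) and Rpl28 at -0.30 ± 0.15 (217 and 156 reads). None of these 4 was called. The others not called with the most reads were Rpl31 (153 and 109 reads), Rps21 (129 and 85), Rpl12 (66 and 37), Rps19bp1 (58 and 38), Rps12 (43 and 30), Rpl30 (41 and 23) and Rpl9-ps6 (35 and 21). Their ratios ran from -0.66 (Rpl12) to -0.32 (Rpl31), and a ratio that missed the threshold at these depths does not show that the levels were alike.

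Of the 5 paralogs tested, 3 were lower. Rpl36al, the autosomal copy of Rpl36a, had more reads than the X-linked gene, 466 and 257 (-0.69 ± 0.11, lower). Rps27rt (135 and 69 reads, -0.79 ± 0.21) and Rpl22l1, the paralog of Rpl22 (183 and 121 reads, -0.42 ± 0.17), were lower as well. Rps27rt was counted as a paralog and not aligned as a retrocopy, so how its reads were divided from those of Rps27 was not examined. Rps27l, a paralog of Rps27 known as a p53 target, had 198 and 194 CPM, where Rps27 had 389 and 257 CPM. Rpl3l, the paralog of Rpl3 that striated muscle uses, had 1 read in replicate 1 and 12 in replicate 2 and was under the minimum of 20. Its direction was that of the muscle markers, and its exact interval for the ratio of CPM was 2.00 to 577. Rpl10l and Rpl39l, known from testis, had 0 reads in both, which allows up to 2.82 CPM in replicate 1 and 3.17 CPM in replicate 2 at a limit of 3 counts. The retrocopy-named Rpl36-ps4 and Rpl9-ps1 had 0 reads too, and Rpl36a-ps1 had 2 and 2.

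**Figure D2:**
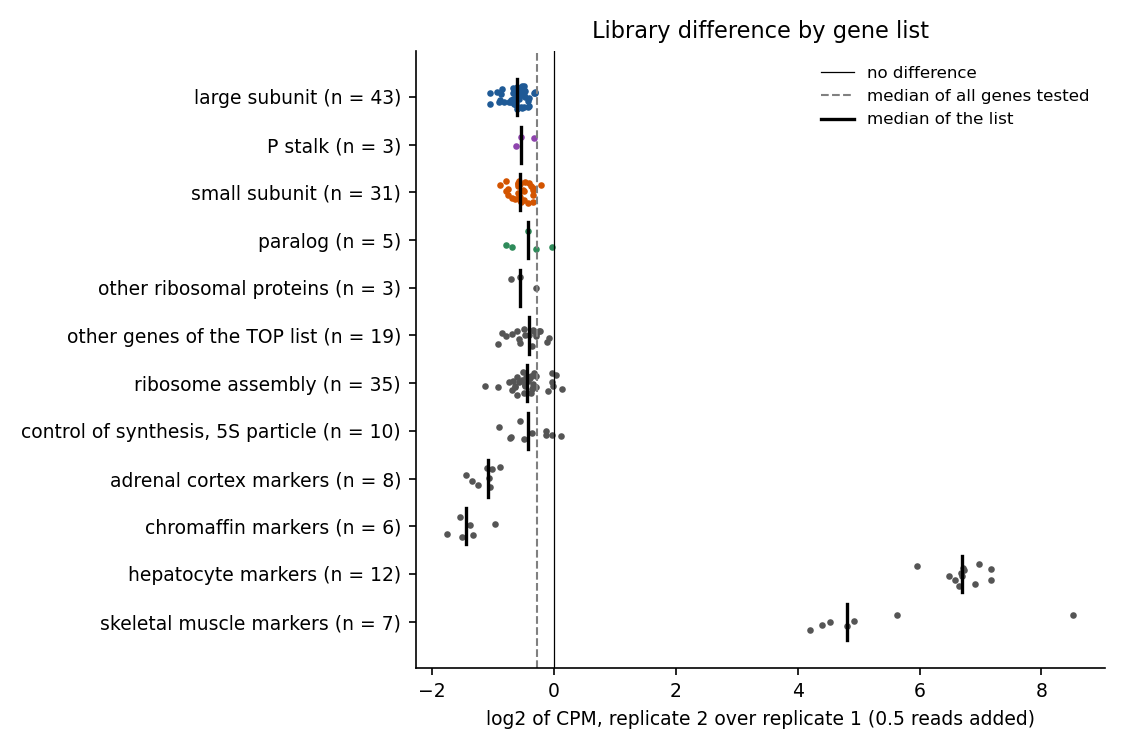
log2 ratio of CPM, replicate 2 over replicate 1, of each gene tested (points, spread vertically for legibility), by list; black bars are list medians, the dashed line is the median of all genes tested (-0.28) and the solid line marks 0. On this scale of gene reads, ribosomal protein genes gather near -0.55 (0.03 with spike-in scaling), cortex and chromaffin markers lie lower at -1.08 and -1.44, and hepatocyte and muscle markers lie far to the right.

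The direction of the difference depended on the scale on which the libraries were set side by side. With edgeR TMM factors 41 of the 86 genes were lower (6.98% of all genes) and with DESeq2 size factors 42 (7.12%), with medians of -0.30 and -0.31. Totals without the liver and muscle list genes gave 57 lower (11.0% of all genes; median -0.42). Scaled by ERCC spike-in reads, the median was 0.03, 1 gene was lower (Rpl39; 1.85% of all genes) and 1 higher (Rps27l; 22.5% of all genes). Over all genes the calls split into 1646 lower and 790 higher with gene reads, 643 and 1093 with TMM, 656 and 1075 with DESeq2, 1012 and 923 without liver and muscle list genes, and 170 and 2071 with spike-in reads. These scalings move the median of all genes by 0.13 to 0.59 on the log2 scale and shift all genes by the same amount, so the distance of 0.27 between the median of all genes and the lower ribosomal protein median is fixed by construction. Without a filter on low counts 68 of 88 were lower (7.86% of all genes) and 1, Rpl3l, was higher (4.84%). When a coefficient of variation of 0.2 was assumed between libraries, edgeR's exact test called 0 of the 86 (0.727% of all genes lower), with 3 at an unadjusted p under 0.05. Counts of 71 to 72 came from a minimum of 50 reads (26.3% of all genes), from Known models only (18.7%) and without Genomic models (18.9%).

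**Figure D3:**
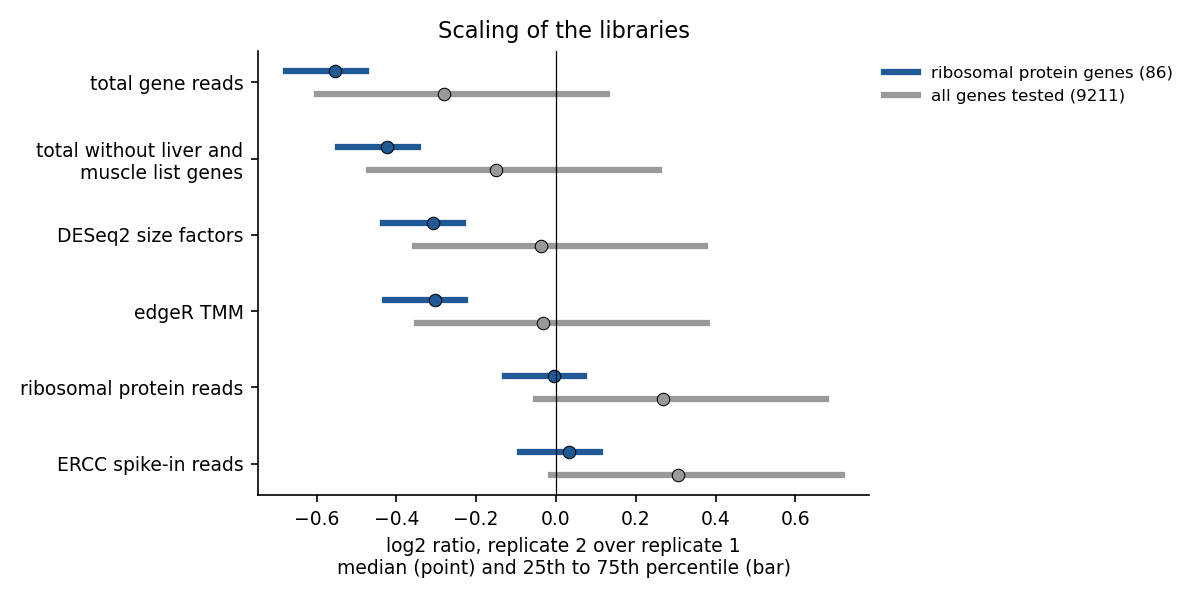
Median log2 ratio of replicate 2 over replicate 1 (points) and the range from the 25th to the 75th percentile (bars) for the 86 ribosomal protein genes (blue) and all 9211 genes tested (grey) under 6 scalings of the libraries. The blue median moves from -0.55 with total gene reads to 0.03 with spike-in reads and its distance to the grey one is fixed, since a scaling shifts all genes alike.

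The make-up of the ribosomal protein reads was then compared by scaling each library to these reads alone. On that scale the median log2 ratio was -0.01, 2 of the 86 genes were lower (2.11% of all genes) and 1 was higher (20.4% of all genes). The lower ones were Rpl37 and Rpl39 and the higher one was Rps27l, with ratios of -0.36, -0.33 and 0.52. Apart from these 3 genes, differences in proportion between the libraries were not detectable at this depth. A retrocopy 99.7% identical to Rpl37, Rpl37rt, held 50.9% and 57.8% of the reads summed over both. With its reads added, the Rpl37 ratio on the scale of gene reads was -0.69 instead of -0.90. The part of this division of reads in the Rpl37 difference was not tested.

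A large part of the reads that match ribosomal protein mRNAs was counted on retrocopies rather than on the genes themselves. Transcripts of pseudogenes with reads, and of the retrocopy-named members, were aligned to the protein-coding transcripts of the core and the paralogs, and 199 with at least 85% identity over at least 50% of their length were assigned to 72 parents. The genes named in this comparison were picked after their values were seen. The 195 that are no members held 7500 reads in replicate 1 and 4483 in replicate 2, which equals 21.6% and 21.3% of the reads counted on members. Single-exon models held 99.8% of these reads. Of 61 retrocopies with at least 20 summed reads, 59 were at least 99% identical to the parent and 18 were 100% identical over the aligned stretch. Reads of a parent and of such a copy cannot be told apart with confidence, and the counts of both are uncertain.

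For 11 parents the retrocopies held more reads than the parent in both libraries. Rpl21 itself had 22 and 12 reads, and its retrocopies had 461 and 278, or 95.4% and 95.9% of the family. Rpl17 had 17 and 7 reads against 202 and 115 on retrocopies, and Rpl10 had 31 and 15 against 292 and 163, nearly all on Rpl10-ps3. By their own reads those 3 genes stood among the 5 lowest of the 86. Rpl35a had 134 and 65 reads against 517 and 295, Rps6, the substrate of the S6 kinases, had 452 and 248 against 495 and 300, and Rps2 had 214 and 133 against 375 and 223. Among single retrocopies Gm15500, a copy of Rpl5, led with 771 and 473 reads, followed by the Rpl3 copy Rpl3-ps1 with 558 and 320. At the other end, Rpl41 had 1264 and 732 against 2 and 0.

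A coding stretch of Rpl21 (on chromosome 5, bases 322 to 441 of the coding sequence counted from the A of ATG) is shown beside the same stretch of Rpl21-ps15, a retrocopy on chromosome X at mm10 chrX:151215209-151215328 on the minus strand that drew 207 and 110 reads. Both are read from GENCODE M21 transcripts and capitals mark the bases that differ. The stretch holds all 3 differences over the 483 coding bases, T336C, G378A and T432C, and shows how little separates the copies.
Rpl21: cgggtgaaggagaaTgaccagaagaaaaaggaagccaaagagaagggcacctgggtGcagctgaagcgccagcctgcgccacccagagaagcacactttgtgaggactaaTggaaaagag
Rpl21-ps15: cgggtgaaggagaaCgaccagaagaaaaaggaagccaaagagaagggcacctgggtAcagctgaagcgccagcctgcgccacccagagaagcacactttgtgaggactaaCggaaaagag
The tissue is an F1 of a CAST parent, whose sequence is not that of mm10, and its part in the split was not tested. Rps19 and Rps19-ps6 differ at 5 of 438 coding bases (C6T, T273C, G369A, G372A and C390T) and drew 396 and 276 reads against 439 and 261. Rpl10-ps3 does not differ from Rpl10 at any of 645 coding bases, nor Gm15500 from Rpl5 at any of 894, so that reads of these coding sequences carry no base that could assign them.

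The split between parent and retrocopies was set side by side in both libraries. Over 28 families with at least 100 retrocopy reads, the retrocopy share differed between libraries by a median of 1.88 percentage points and at most 8.29. Of the 61 tested retrocopies that are no members, 23 were lower in replicate 2 and 0 higher, beside the same background of 17.9% and 8.58%, with a median log2 ratio of -0.57. When retrocopy reads were added to the parent, 75 of 83 genes were lower (17.8% of all genes) and 0 higher, with a median of -0.56, and the shares of gene reads were 3.96% and 2.70%. Rpl10, Rpl17, Rpl21, Rpl30 and Rpl31 were then called. The Rpl37 family, with Rpl37rt as its copy, came to 748 and 412 reads and a ratio of -0.69, where Rpl37 alone gave -0.90. In the Rpl7a family retrocopies held 55.0% and 63.3% of 140 and 79 reads. Its ratio was -0.65, where Rpl7a alone gave -0.94.

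**Figure D4:**
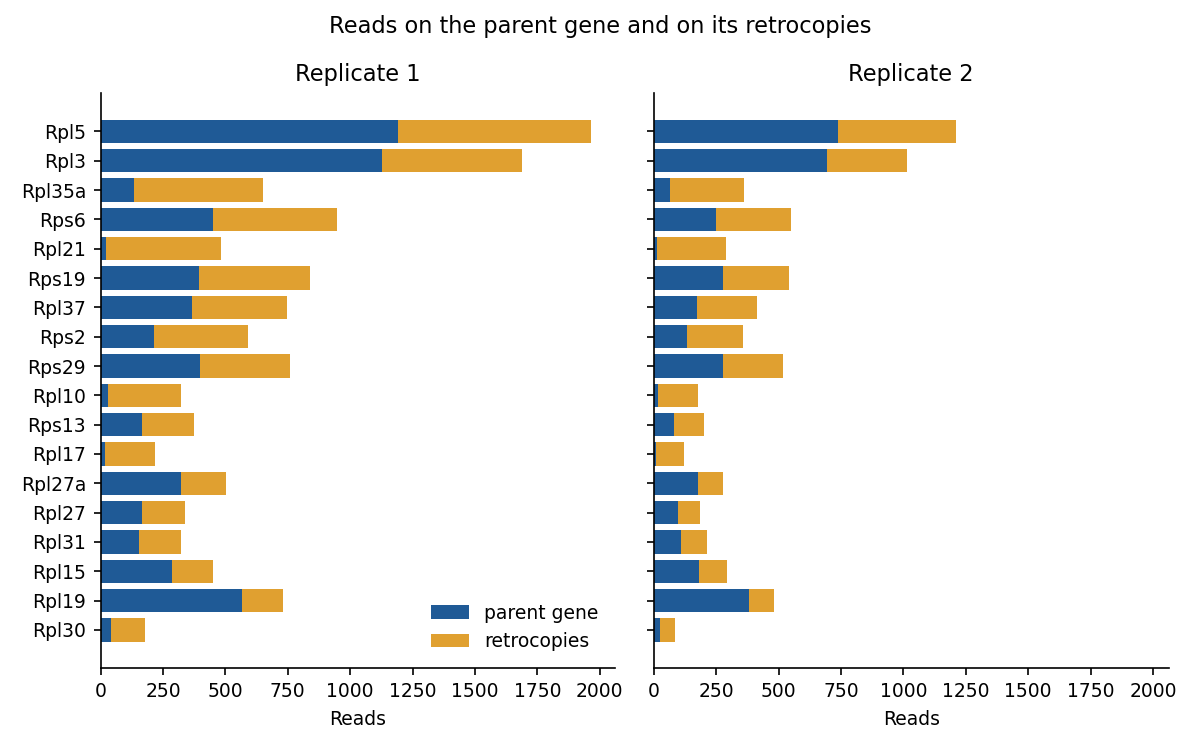
Reads counted on the parent gene (blue) and on its retrocopies (orange) in replicate 1 (left) and replicate 2 (right), for the 18 parents with the most retrocopy reads in replicate 1. Nearly the whole bar is orange for Rpl21, Rpl17 and Rpl10, in both libraries.

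Splicing of the members did not differ detectably between the libraries. Reads were grouped by intron chain, the ordered set of introns of a model, and the chain by library table was tested per gene (Fisher's exact test for 2 chains, otherwise a permutation test with 100000 draws). Of 2709 genes tested 2.10% were called. Of 60 ribosomal protein genes tested 0 were called, with 0 at an unadjusted p under 0.05. The leading chain held a median of 94.1% of chain reads in these genes and 86.0% over all genes tested. In 18 of the 60 genes, and in 44.3% of all genes tested, another chain took at least 10% in both libraries.

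In 8 of these 18 genes the pair of chains differed only by the first intron, and in 7 by the choice of a donor site. Rpl8 put 308 and 194 reads on the leading chain and 89 and 47 on Rpl8-202, and Rps14 put 631 and 431 on the leading chain and 78 and 54 on Rps14-203. In Rpl27 the libraries lay further apart than in these, with 70.1% and 80.2% of its reads on the leading chain and 22.6% and 13.5% on the chain without the first intron, and the gene was not called. Larger shifts of a chain's share of chain reads, of 15.2, 12.9 and 10.3 points, stood in Rpl35a, Rps24 and Rpl31, also not called. The tables hold no read ends for Known models, so a read that starts inside the gene and a transcript that keeps or skips the first intron cannot be told apart. Rpl38, a small protein of the large subunit, used first-exon donors 17 nt apart, with 57.1% and 59.4% of its reads on Rpl38-204 and 34.6% and 31.4% on Rpl38-201. Rps28 used donors of intron 3 that lie 4 nt apart, with 70.6% and 69.9% on Rps28-205 and 26.9% and 28.0% on Rps28-201. In Rps19 and Rpl15, other first donors, 202 and 136 nt away, took 9.85% and 10.9%, and 10.8% and 9.44%, of the reads. Rpl22l1 used acceptors 3 nt apart, with 71.0% and 69.4% of reads on Rpl22l1-206 and 21.9% and 23.1% on Rpl22l1-201.

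In Rpl5 the leading chain was a short one. Rpl5-204, annotated as a retained intron and holding the last 2 introns of the gene, took 1018 and 651 reads, or 85.3% and 88.5%. The full chain of 7 introns, Rpl5-201, took 147 and 74 reads, 12.3% and 10.1%. Reads that cover only the last exons would match the short chain. The retrocopy Gm15500, with 771 and 473 single-exon reads, is 100% identical to Rpl5 over 1018 nt. In Rpl39, models classed as incomplete splice matches (ISM) made up 54.8% and 50.2%, and the full chain had 273 and 145 reads.

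Models that match an annotated transcript (Known) took 86.4% of member reads in replicate 1 and 87.0% in replicate 2, against 75.7% and 78.0% for all other genes. ISM models took 11.7% and 11.0%, and of these 84.4% and 88.4% were suffixes, which end with the gene. Models with new combinations of known splice sites (NIC) took 0.409% and 0.560%. These 3 classes differed between libraries by Fisher's exact test (adjusted p of 0.047, 0.031 and 0.031 over 5 classes), by less than 1 percentage point each. Among all other genes every class was called. Known and ISM moved there in the same direction as in the members, and NIC in the other (4.68% and 4.05%). Within multi-exon models of the members 0 classes were called, with 1 (NIC) at an unadjusted p under 0.05. Models with a new splice site (NNC) took 0.928% and 0.844%, and Genomic models, which overlap a gene without matching its splicing, took 0.562% and 0.546%. Among Known reads of the members, 94.3% and 94.7% lay on transcripts annotated as protein-coding. Retained-intron transcripts took 4.57% and 4.50%, against 1.27% and 0.999% in other genes, and 1018 and 651 of these 1371 and 825 reads were those of Rpl5-204. Processed transcripts took 1.04% and 0.736%, a difference between the libraries (Fisher's exact test, adjusted p of 0.0024 over 4 types) that other genes showed in the same direction (0.457% and 0.339%). Transcripts annotated for nonsense-mediated decay held 31 and 11 reads, which was not called.

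Rpl7l1, a paralog of Rpl7, had the most used unannotated chain. Beside 72 and 58 reads on the annotated chain, 59 and 42 reads, 35.1% and 34.4%, left its sixth exon 5 nt further downstream. The donor lies 11 nt after the stop codon. The junction (mm10 chr17:46778035-46778064, minus strand, from GENCODE M21 transcripts) reads as follows, with the first 2 bases after the annotated donor and after the unannotated one in capitals, to show that the reference has GT at one and GC at the other.
Rpl7l1: agagcaggagcagGTgagGCgagtgtgtgc

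Rps24, which the small subunit needs to mature 18S rRNA, is known for short exons between its coding exons and the last exon. It lies at chr14:24487125-24496123 on the plus strand of mm10. Of the reads that leave its exon of 111 nt, 67 of 114 in replicate 1 and 53 of 93 in replicate 2 joined the last exon directly, 58.8% (exact 95% interval 49.2 to 67.9) and 57.0% (46.3 to 67.2). An exon of 36 nt was included in 45 and 36 reads, 39.5% (30.4 to 49.1) and 38.7% (28.8 to 49.4). No difference between the libraries was detected (Fisher's exact test, p of 0.888 and 1), and both used both forms. The annotation gives an exon of 18 nt with the same start, which had 0 and 3 reads, and a further exon of 20 nt, which had 0 reads in both. A count of 0 allows a share of up to 3.18% and 3.89% by the exact interval. The 36 nt consist of the annotated exon (chr14:24494052-24494069) and the next 18 nt (chr14:24494070-24494087). The stop codon is in capitals in the first, and the second begins with the GT of the donor site that the annotated exon uses, also in capitals.
Rps24 exon of 18 nt: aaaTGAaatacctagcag
Rps24 further 18 nt: GTactgccattgggcacg
In this frame the exon adds 1 codon before the stop, and the annotated coding sequence of Rps24-205, which includes it, has 131 codons against 133 in Rps24-210, which joins the last exon directly. Since the stop lies within the first 18 nt, the further 18 nt add no codon. The ratio of the whole gene, 121 and 105 CPM, was not called (adjusted p of 0.476).

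**Figure D5:**
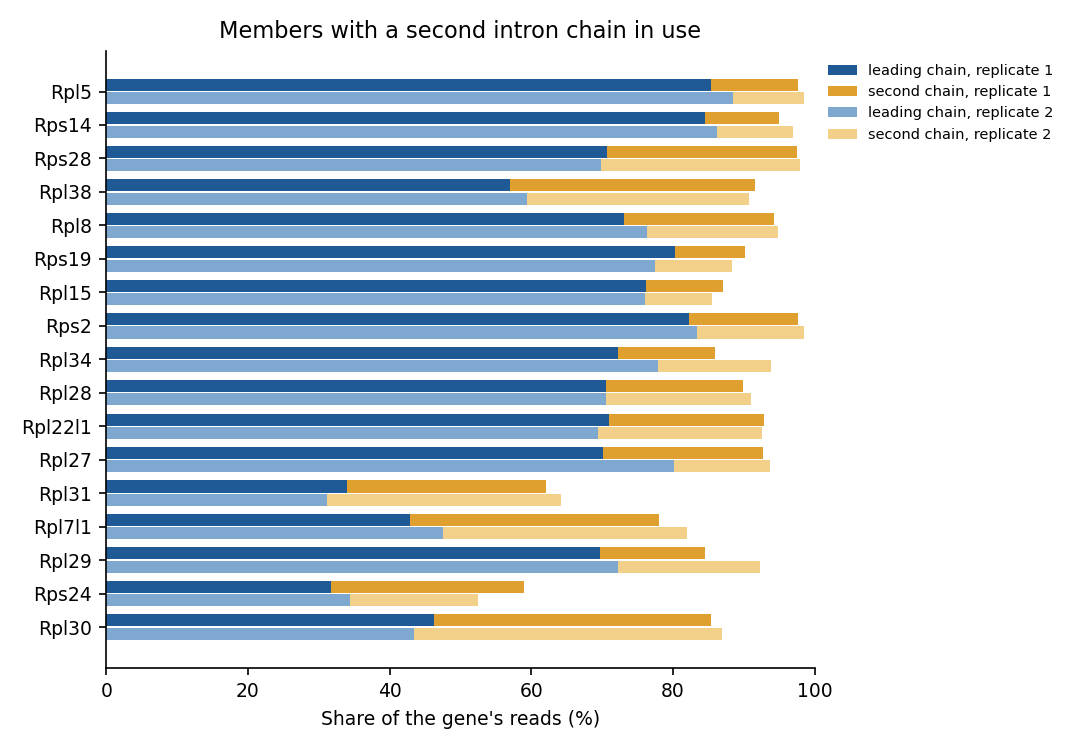
Share of each gene's reads (%) on its leading (blue) and next (orange) intron chain in replicate 1 (dark, upper bar) and replicate 2 (light, lower bar) for 17 of the ribosomal protein genes with 2 chains in use. The leading bars end at 70.6% and 69.9% in Rps28 and at 70.1% and 80.2% in Rpl27.

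Other genes of the pathway were read from lists chosen with earlier results known. Of 3 ribosomal proteins with other names 3 were lower, among them Fau, a ubiquitin-like fusion (295 and 181 CPM, -0.70 ± 0.14), and Rack1 (221 and 150 CPM, -0.56 ± 0.15). Of 19 other genes listed for mRNAs known to carry a 5′ terminal oligopyrimidine (TOP) tract, most of them translation factors, 12 were lower, 0 higher and the median was -0.41. The list also holds genes that are no translation factors, among them Gas5, a noncoding host gene of snoRNAs, and Cct4, Nap1l1, Hnrnpa1 and Npm1. The elongation factor Eef1a1 (973 and 770 CPM), Naca (435 and 356 CPM) and Eef1g (404 and 315 CPM) were lower. Eef2 (564 and 521 CPM) and Tpt1 (406 and 342 CPM) were not called. Of 35 ribosome assembly genes 6 were lower and 0 higher (median -0.44), among them Nop10 (404 and 264 CPM), Ncl (288 and 173 CPM) and Eif6 (225 and 139 CPM), while Sbds (146 and 110 CPM) was not called. Of 10 genes that control ribosomal protein synthesis or respond to free 5S particles 1 was lower, Myc (147 and 78.2 CPM, -0.91 ± 0.20). Eif4ebp1 (167 and 152 CPM), Trp53 (130 and 100 CPM) and Eif4ebp2 (49.7 and 45.4 CPM) were not called. The list median was -0.43. The share of lower calls was 63.2% in the TOP list, 17.1% in the assembly list and 10% in the control list, beside 17.9% of all genes. The median counting SE was 0.15, 0.31 and 0.31 in these lists, and their median ratios were close. Calls were more frequent at depth, so these shares do not show that the lists differed in ratio.

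The choice of genes did not use the promoter or the 5′ end. In the first 25 bases of the leading annotated transcript, 18 of 86 ribosomal protein genes (20.9%) held an unbroken run of at least 8 C or T bases, against 7.58% of 8883 other genes tested. Annotated starts need not be the starts used in this tissue. The leading transcript was the Known one with the most reads. For Rpl5 and Rpl21 this was a retained-intron transcript, Rpl5-204 and Rpl21-204, and members named as retrocopies were counted too. The share is therefore one of leading transcripts and not of mRNA starts. Examples with long runs are shown to make the tract visible, with the longest run in capitals (GENCODE M21).
Rps24: CTCTTTTCCTCCTCTCCagctccgg
Rpl32: CTTCCTTCTTCCTCggcgctgccta
Rpl26: gtagTTCTCTTTCCTTTTgcggcca
Rplp1: gaTCTTTTCCTCagctgccgccaag
Rpl4: CTTTTCCTgtgggagcagccgggta
In RefSeq promoters of 300 bases (GRCm38.p6, 250 before to 50 after the start), 57 core genes had an entry. On either strand, CCGGAAG, the core letters of Ets-family sites such as those of Gabpa, stood in 24 of them (42.1%) against 9.93% of 27025 genes. GGGCGG, the letters of a GC box, stood in 61.4% against 38.2%, AAGATGGC, letters of Yy1 sites, in 8.77% against 3.19%, and TATAAA in 10.5% against 15.7%. The 27025 genes are all those with an entry, the core included. They were not filtered by reads, unlike the genes of the 5′ end comparison. A match describes the letters in this window and no binding.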

How the data were processed

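Long-read RNA-seq of adrenal gland was analysed in 2 libraries of 1 group. Per the file headers and the deposited notes, the authors deposited whole read counts per transcript model and library on mm10 with GENCODE M21, with model classes of TALON; the counts are neither scaled nor pooled. No source used here names the aligner, the TALON version or the read filters. Reads were summed per annotated gene over all classes, without spike-ins, and each column name was matched to its replicate by the labels.

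CPM used the gene reads as total. Ratios had 0.5 reads added. Python 3.11.15 with scipy 1.17.1 gave the exact tests; edgeR 4.0.16 and DESeq2 1.42.0 in R 4.3.3 gave the TMM factors, size factors and the exact test at a fixed coefficient of variation of 0.2; blastn 2.17.0 (E-value 1e-10) assigned retrocopies. Isoform tests took chains of Known, NIC or NNC class with at least 5 summed reads in genes with at least 20 chain reads per library; alternatives used 10000 draws. On simulated reads for 9225 genes with 200 changed 2-fold, 100 of the 200 were recovered, with 4 false calls. Among the 88 changed genes with at least 100 reads, 75 were recovered. For chains, 30 points were moved in 200 of 2703 genes, all 200 drawn from genes with at least 100 chain reads. Of these 181 were recovered, with 4 false calls, and recovery at lower depth was not simulated. Both simulations held counting error only, without spread between libraries, so their false calls do not measure those of real libraries.

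The genes named are the 10 of highest mean CPM, the 4 highest and 4 lowest ratios from 50 reads up, up to 12 not called, the stalk, X-linked and paralog genes, Rps27a, up to 8 with another chain in use, Rps24, and up to 4 per other list; a few of these are not reported here. Rps13 was named after its ratio was seen. The members and lists were chosen with earlier results of these data known. The labels do not say whether the libraries come from separate animals in full, so p-values measure the spread of counts only.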

Additional observations from a re-analysis of the deposited data

How the results depend on the processing

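Of the 86 genes tested, 71 were lower in replicate 2 with totals of gene reads. This count moved to 41 with TMM, 42 with DESeq2 size factors, 1 with spike-in reads, 2 with ribosomal protein reads and 0 when a coefficient of variation of 0.2 was assumed. It was 57 to 75 under the other settings run, and 67 of 77 over the core. The median log2 ratio of -0.55 moved to -0.30 with TMM, -0.31 with DESeq2, -0.01 (-0.0053) with ribosomal protein reads and turned to 0.03 (0.033) with spike-in reads; it was -0.59 to -0.42 otherwise. The share of gene reads was 2.58% to 3.33% under other counts or denominators and 2.23% to 3.26% leaving out a replicate. In every isoform setting 0 members were called. The mean share of the leading Rps24 chain was 57.7% (51.25% in replicate 1 and 64.15% in replicate 2). By construction it was 94.1% with Known chains only and 37.7% with ISM models as chains. The 3 model classes that differed became 0 within multi-exon models. Log2 ratios of single genes named above turned positive as follows. With spike-in reads: Rps27l 0.56, Eef2 0.47, Eif4ebp2 0.46, Eif4ebp1 0.45, Rps24 0.38, Tpt1 0.34, Rpl7l1 0.30, Naca 0.30, Rpl28 0.28, Rpl31 0.27, Rplp2 0.26, Eef1a1 0.25, Rps12 0.25, Rps19 0.24, Trp53 0.22, Rps14 0.18, Sbds 0.18, Rpl22l1 0.16, Rpl4 0.16, Rps21 0.16, Rps19bp1 0.15, Rpl15 0.091, Rpl5 0.062, Rpl3 0.056, Rplp0 0.049, Rpl36a 0.039, Rpl9-ps6 0.035, Rps27a 0.032, Rpl8 0.030, Rack1 0.027, Rpl35 0.018. With ribosomal protein reads: Rps27l 0.52, Eef2 0.43, Eif4ebp2 0.42, Eif4ebp1 0.41, Rps24 0.34, Tpt1 0.30, Rpl7l1 0.26, Naca 0.26, Rpl28 0.24, Rpl31 0.23, Rplp2 0.22, Eef1a1 0.21, Rps12 0.21, Rps19 0.20, Trp53 0.18, Rps14 0.14, Sbds 0.14, Rpl22l1 0.12, Rpl4 0.12, Rps21 0.12, Rps19bp1 0.12, Rpl15 0.053, Rpl5 0.023, Rpl3 0.017, Rplp0 0.0097, Rpl36a 0.00043. With TMM: Rps27l 0.22, Eef2 0.13, Eif4ebp2 0.12, Eif4ebp1 0.12, Rps24 0.040, Tpt1 0.0022. With DESeq2: Rps27l 0.22, Eef2 0.13, Eif4ebp2 0.12, Eif4ebp1 0.11, Rps24 0.035. With totals without liver and muscle list genes: Rps27l 0.10, Eef2 0.016, Eif4ebp2 0.0028. Adding retrocopy reads to the parent was chosen after seeing the data. The causes of these changes were not tested. Of the genes under 500 summed reads, 22 of 37 tested were called. No paired analysis was possible because there is a single group.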
